A study of Mus musculus with 32 samples.

Results

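The 10 genes described here encode surface proteins with which endothelial cells (ECs) hold leukocytes and let them pass: the selectins Sele and Selp, the immunoglobulin-superfamily ligands Vcam1, Icam1, Icam2, Madcam1 and Alcam, and the junctional adhesion molecules F11r, Jam2 and Jam3. They were found by gene symbol and made up 10 of the 54532 genes in the count tables. All 10 were among the 15254 genes that passed the filter on low counts. The RNA came from Veravec, a line of mouse lung ECs, so all groups share 1 cell line. Cells were transfected with a control siRNA (si-control) or with siRNA against Dnmt1 (si-dnmt), the maintenance DNA methyltransferase, and transfected again to reinforce the knockdown. They were then left without cytokine or given TNF (TNFα, 10 ng/mL), IFN (IFNγ, 1000 U/mL) or TNF + IFN, with 16 h of cytokine. The 8 groups held 4 libraries each, labeled biological replicates 1 to 4, and nothing says what separates the replicates, so p-values measure the spread between these libraries.

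Leukocytes leave the blood in steps that use different members of this group. Selectins on the endothelium catch rolling cells through sugar-bearing ligands, ICAM and VCAM proteins then bind leukocyte integrins in firm adhesion, and JAM proteins at the cell border take part in the passage between ECs. TNF acts on many of these genes through NF-kB, while IFNγ acts in part through IRF factors. Selp protein is also stored in ECs and can reach the surface without new RNA, so its RNA level is not its surface level.

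Counts per library ranged from 17362546 to 33500030. Dnmt1 lay between 86.5 and 211 CPM (counts scaled to library size, with TMM factors) in the 16 si-control libraries and between 5.11 and 17.3 CPM in the 16 si-dnmt libraries, with no overlap. The cytokine labels were checked on known targets, and Irf1 rose from a mean of 35.8 CPM in si-control to 753 CPM with IFN, and Tnfaip3 rose from 20.5 to 128 CPM with TNF. Within every group, replicates 1 and 2 resembled each other and stood apart from replicates 3 and 4, and the values of each set are given beside several of the results. A call within a set rests on the spread between its 2 libraries per group and leaves out the larger spread between the sets. All 10 endothelial markers examined were detected, with Cdh5 at 847 to 2880 CPM and Pecam1 at 646 to 2170 CPM, although Cldn5 fell to 0.116 CPM and Vwf to 0.863 CPM in their lowest libraries. The summed endothelial markers were lower with TNF (3700 to 5370 CPM against 5520 to 8320 CPM without cytokine in si-control), and their part in the results below was not tested. Of the leukocyte markers, Ptprc, Cd3e and Itgam stayed at or below 0.134 CPM, Csf1r reached 1.56 CPM, and Lyz2 and Cd68 reached 133 and 214 CPM. Among the epithelial markers none exceeded 0.185 CPM. In bulk RNA, fewer cells of a type and less RNA per cell cannot be told apart.

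Promoter sequences are shown for Icam1, Sele and Madcam1, members that were higher with TNF than with IFN and for which a RefSeq window was at hand. Each is the 250 bases before the start site in RefSeq (GRCm38.p6), read 5′ to 3′ on the + strand, at chr9:21015690-21015939 for Icam1, chr1:164047984-164048233 for Sele and chr10:79664309-79664558 for Madcam1. Capitals mark letters that fit an NF-kB site on either strand, either the 10-letter consensus or the shorter form GGNNNTTCC, which was chosen after the windows had been seen.
Icam1: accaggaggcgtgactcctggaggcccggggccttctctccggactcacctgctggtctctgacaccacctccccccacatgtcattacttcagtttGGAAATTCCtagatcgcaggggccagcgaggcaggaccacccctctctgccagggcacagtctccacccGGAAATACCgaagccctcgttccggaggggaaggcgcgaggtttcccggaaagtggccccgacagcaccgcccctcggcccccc
Sele: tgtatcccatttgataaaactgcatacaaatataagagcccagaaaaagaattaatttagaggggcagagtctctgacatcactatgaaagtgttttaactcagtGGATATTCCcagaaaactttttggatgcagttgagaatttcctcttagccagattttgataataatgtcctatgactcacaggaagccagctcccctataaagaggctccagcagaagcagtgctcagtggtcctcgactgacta
Madcam1: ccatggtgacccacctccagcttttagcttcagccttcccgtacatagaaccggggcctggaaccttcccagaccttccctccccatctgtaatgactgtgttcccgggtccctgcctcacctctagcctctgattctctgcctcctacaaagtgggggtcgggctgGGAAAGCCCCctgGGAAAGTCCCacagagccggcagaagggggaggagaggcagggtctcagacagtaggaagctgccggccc

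Windows of 300 bases, from 250 before to 50 after the start site, were found for 6 of the 10 members, namely Icam1, Sele, Selp, Madcam1, F11r and Alcam. The consensus NF-kB site was present in 4.51% of all 32851 RefSeq windows and, among the 6, in Madcam1 alone, at positions -83 and -70 on the minus strand (position 0 is the start site). The shorter form was present in 18.5% of all windows. In Icam1 it began at -153 and -84 and in Sele at -145, and Selp and F11r held it at -14 and 29. Both consensus sites of Madcam1 also hold the shorter form, and Alcam held neither. CpG content, as the observed-to-expected ratio, was 0.623 in Icam1, 0.702 in F11r and 0.688 in Alcam, above the median of 0.384 over all windows, and 0.231 in Sele, 0.202 in Selp and 0.299 in Madcam1, below it. These are matches of letters, and no binding or methylation was measured.

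Across the cytokine groups of si-control cells, TNF moved 7 of the 10 genes, with 4 higher and 3 lower, where 30.7% of all genes tested were called (adjusted p under 0.05). IFN moved 3, all of them higher (Vcam1, Icam1 and Icam2), where 14.4% of genes were called. TNF + IFN moved 7, with 5 higher and 2 lower, against 45.1% of genes. The median log2 fold change over the 10 members was 0.18 with TNF, 0.14 with IFN and 0.57 with TNF + IFN, and that over all genes was -0.0092, -0.00816 and -0.00582. These comparisons share the untreated libraries. In the direct comparison of TNF with IFN, 4 members were higher with TNF (Vcam1, Icam1, Sele and Madcam1), 3 were lower (Icam2, Jam2 and Alcam), and Selp, F11r and Jam3 were not called, where 28.3% of genes were called.

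**Figure D1:**
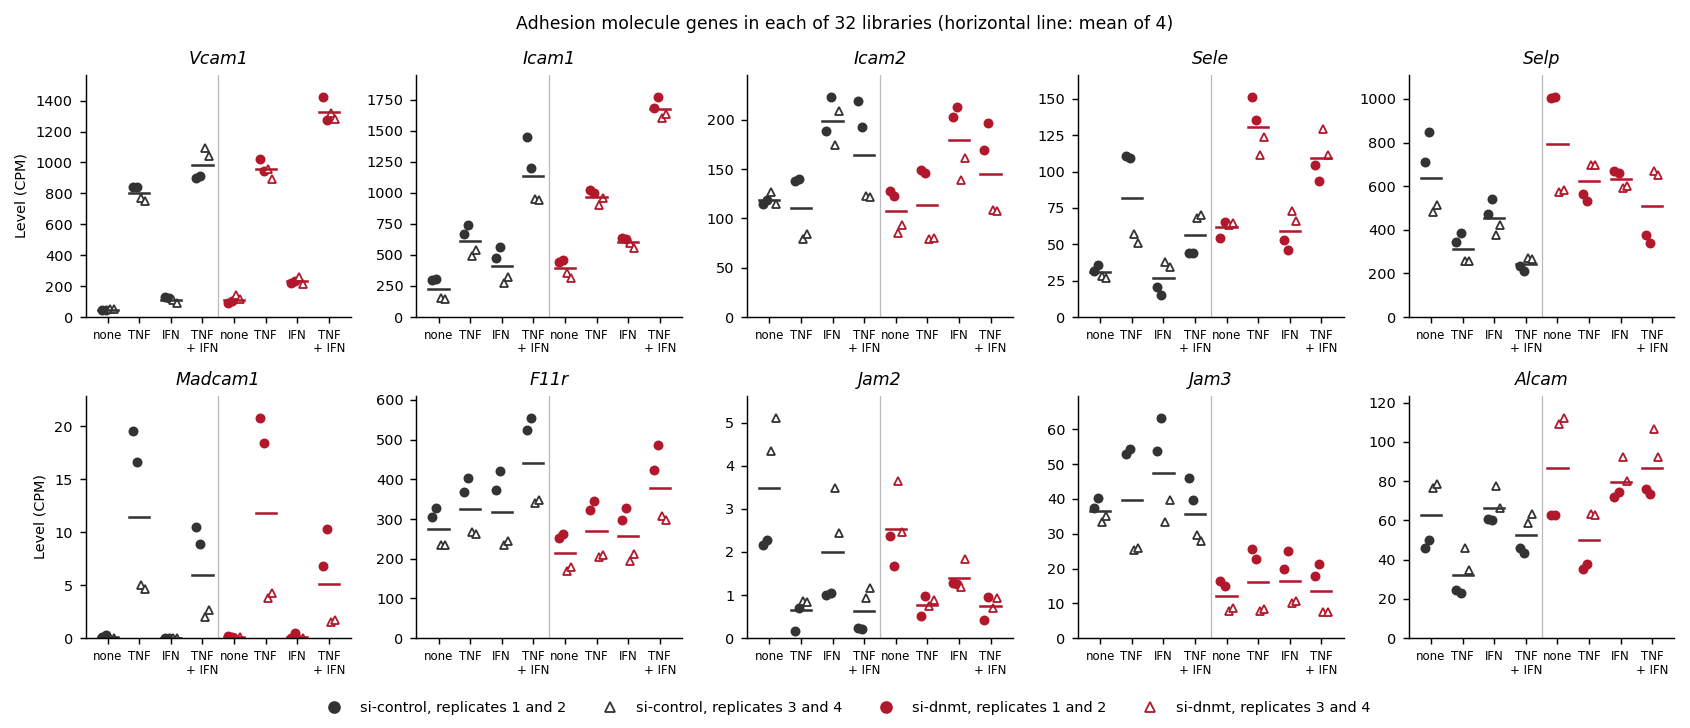
Level of each of the 10 genes (CPM, linear axes from 0) in the 32 libraries, by cytokine (none, TNF, IFN, TNF + IFN) in si-control (dark) and si-dnmt (red) cells. Circles are replicates 1 and 2, open triangles are replicates 3 and 4, and each line is the mean of 4. Vcam1 rises from 43.5 to 49.8 CPM without cytokine to 752 to 842 CPM with TNF, Madcam1 is near 0 wherever TNF is absent, and Jam3 is lower in every si-dnmt mean.

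Vcam1, which binds the integrin α4β1 of lymphocytes and monocytes, had the steepest rise of any member with a measurable resting level. Without cytokine the si-control libraries held 44.5, 43.5, 49.8 and 49.6 CPM, and with TNF they held 842, 839, 772 and 752 CPM. With IFN they held 129, 121, 108 and 92.1 CPM, while the combination gave 897, 912, 1092 and 1040 CPM. No 2 of these groups overlapped. TNF raised Vcam1 17.1-fold (log2 4.10 ± 0.12, adjusted p = 7.42e-20), IFN raised it 2.40-fold (log2 1.26 ± 0.11, adjusted p = 7.01e-10), and TNF + IFN raised it by 4.39 ± 0.13 on the log2 scale (adjusted p = 7.93e-21). TNF therefore gave 7.13 times the level seen with IFN.

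The combined effect of the cytokines on Vcam1 was smaller than the product of the single effects. Its TNF-by-IFN interaction was -0.96 ± 0.15 on the log2 scale (adjusted p = 0.000516), in a test that called 1.08% of genes and no other member. The size differed between the replicate sets, at -1.42 in replicates 1 and 2 and -0.52 in replicates 3 and 4, and both were called. In si-dnmt cells the interaction was -0.55 ± 0.15 (adjusted p = 0.17), where 0.354% of genes and no member were called by edgeR or DESeq2, while 2 members (Vcam1 and Alcam) had an unadjusted p under 0.05. It was called there with replicate number as a block (adjusted p = 0.0362), and also at -0.67 without si-dnmt replicate 3.

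Icam1, a ligand of the leukocyte β2 integrins LFA-1 and Mac-1, responded to both cytokines. The si-control libraries held 295, 310, 153 and 147 CPM without cytokine, 671, 743, 489 and 540 CPM with TNF, and 477, 562, 271 and 323 CPM with IFN. With TNF + IFN they held 1451, 1198, 946 and 939 CPM, above every other si-control library. Replicates 1 and 2 were higher than replicates 3 and 4 in each of these groups, and the IFN libraries overlapped those of the neighboring groups. TNF raised Icam1 2.70-fold (log2 1.43 ± 0.22, adjusted p = 1.16e-05) and TNF + IFN raised it 5.01-fold (log2 2.33 ± 0.23, adjusted p = 1.42e-09). The rise with IFN was 1.80-fold (log2 0.85 ± 0.22, adjusted p = 0.00667), and it was 0.63 and not called without si-control + IFN replicate 2 (adjusted p = 0.0588) and 0.83 when only the libraries compared were fitted (adjusted p = 0.151).

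The Icam1 interaction of TNF with IFN was 0.04 ± 0.30 (log2) and was not called (adjusted p = 0.993). The excess of TNF over IFN was small for Icam1 (log2 0.58 ± 0.22, adjusted p = 0.0434). Without the low-count filter it was 0.59 and not called (adjusted p = 0.1). When only the libraries compared were fitted it was 0.61 and not called (adjusted p = 0.098). It was 0.45 to 0.53 and not called without any 1 of si-control + TNF replicates 1 and 2 and si-control + IFN replicates 3 and 4, although both replicate sets called it on their own, at 0.44 and 0.79.

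Sele, which encodes E-selectin and is made by activated endothelium, rose with TNF and was not called with IFN. Its si-control libraries held 31.9, 35.8, 28.3 and 27.0 CPM without cytokine and 111, 109, 57.1 and 51.0 CPM with TNF. The IFN libraries held 20.5, 15.3, 38.1 and 34.1 CPM, and those with TNF + IFN held 43.9, 43.7, 68.0 and 70.4 CPM. TNF libraries lay above all untreated libraries, while IFN libraries lay on both sides of them. The change was 2.67-fold with TNF (log2 1.42 ± 0.25, adjusted p = 8.05e-05), 1.84-fold with TNF + IFN (log2 0.88 ± 0.25, adjusted p = 0.00489), and -0.19 ± 0.25 on the log2 scale with IFN (adjusted p = 0.715).

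The replicate sets of Sele moved in opposite directions with IFN. In replicates 1 and 2 the log2 change was -0.89 (adjusted p = 7.09e-06) and in replicates 3 and 4 it was 0.38 (adjusted p = 0.0059). They also ordered TNF and TNF + IFN differently. The rise in replicates 1 and 2 was 1.72 with TNF and 0.39 with TNF + IFN, and in replicates 3 and 4 it was 0.96 and 1.32. TNF exceeded IFN in both sets, by 2.61 and 0.58, and in all libraries by 3.04-fold (log2 1.60 ± 0.25, adjusted p = 1.81e-05).

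Madcam1, the ligand of the gut-homing integrin α4β7 and best known from mucosal venules, was seen almost only with TNF. The si-control libraries held 0.141, 0.265, 0 and 0 CPM without cytokine, which is 8 counts in all, and the IFN libraries held 2 counts in all. With TNF they held 19.6, 16.6, 5.06 and 4.64 CPM (1026 counts), and with TNF + IFN 10.5, 8.85, 1.97 and 2.65 CPM (470 counts). Every TNF library lay above every library without TNF, and replicates 1 and 2 were higher than replicates 3 and 4. The ratio of TNF to no cytokine was 122 (61.9 to 284, 95% counting interval), and that of TNF to IFN was 425 (117 to 3510).

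The Madcam1 changes were called for TNF (adjusted p = 1.24e-05), for the combination (adjusted p = 3.84e-05) and for TNF against IFN (adjusted p = 7.45e-06), and the intervals cover counting error only. Replicates 3 and 4 held 0 counts without cytokine, where a floor of 3 counts per library makes the rise with TNF at least 36.5-fold. TNF alone gave 1.84 times the level of TNF + IFN (1.65 to 2.05, counting interval), and this ratio was 1.87 in replicates 1 and 2 and 2.08 in replicates 3 and 4. It was not tested over libraries.

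Selp encodes P-selectin and was the member that TNF lowered from a high level. Its si-control libraries held 712, 847, 483 and 513 CPM without cytokine and 345, 387, 258 and 256 CPM with TNF. With IFN they held 470, 542, 377 and 421 CPM, while the combination gave 233, 212, 270 and 266 CPM. All TNF and TNF + IFN libraries lay below all untreated ones. Selp fell by 51.2% with TNF (log2 -1.04 ± 0.22, adjusted p = 0.000615). Under the combination it fell by 61.6% (log2 -1.38 ± 0.22, adjusted p = 8.42e-06). The IFN value was -0.50 ± 0.22 (adjusted p = 0.14). TNF against IFN gave -0.54 ± 0.22 (adjusted p = 0.0644), and -0.66 with a call once si-control + TNF replicate 2 was left out. Reads of Selp cannot be told apart from those of 2 annotated antisense genes that overlap it, Gm16587 and Gm16548, since the strand setting of the counting is not known. Vcam1, Icam1 and Jam3 each overlap 1 antisense gene, to unlike extents. The shared exon bases were 624 in Selp, 61 in Vcam1, 511 in Icam1 and 1159 in Jam3, whose longest transcript has 1942 bases.

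Icam2, a ligand of LFA-1 that resting ECs carry, was the member raised by IFN alone among the single cytokines. The si-control libraries held 115, 119, 127 and 115 CPM without cytokine and 188, 224, 175 and 208 CPM with IFN, with no overlap. With TNF they held 138, 140, 79.2 and 84.0 CPM whereas the combination gave 219, 193, 123 and 122 CPM. IFN raised Icam2 1.67-fold (log2 0.74 ± 0.24, adjusted p = 0.0386). This call was lost on leaving out any 1 library except si-control + IFN replicate 3 (log2 0.66 to 0.77), whereas each replicate set kept it. TNF gave -0.10 ± 0.24, made up of 0.27 in replicates 1 and 2 and -0.57 in replicates 3 and 4, each called. The value with TNF + IFN was 0.47 ± 0.24 (adjusted p = 0.12, and 0.0166 with the replicate block). It came from 0.84 in replicates 1 and 2, which was called, and 0.02 in replicates 3 and 4 (adjusted p = 0.862). TNF libraries differed from IFN libraries by -44.4% (log2 -0.85 ± 0.24, adjusted p = 0.00957), and in this both sets went the same way.

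Among the junctional molecules, F11r (JAM-A) was raised by the combination. It held 305, 327, 235 and 234 CPM at rest and 525, 555, 341 and 348 CPM under both cytokines, a rise of 1.61-fold (log2 0.68 ± 0.24, adjusted p = 0.0211). The single cytokines gave 0.24 ± 0.24 and 0.21 ± 0.24, and TNF against IFN gave 0.03. With the replicate block both single-cytokine rises were called as well, at 0.23 (adjusted p = 0.00249) and 0.18 (adjusted p = 0.026). The call with TNF + IFN was lost (log2 0.54 to 0.61) without any 1 of si-control replicates 3 and 4 and si-control + TNF + IFN replicates 1 and 2.

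Jam2 (JAM-B) was low and fell further with TNF. Its si-control libraries held 2.16, 2.28, 4.35 and 5.11 CPM without cytokine, 0.172, 0.703, 0.865 and 0.836 CPM with TNF, and 0.240, 0.208, 0.925 and 1.16 CPM with TNF + IFN. Neither TNF group overlapped the untreated one. Jam2 fell by 81.4% with TNF (log2 -2.43 ± 0.47, adjusted p = 0.000245). The combination gave -81.9% (log2 -2.47 ± 0.48, adjusted p = 0.000118), and the IFN value was -0.80 ± 0.44 (adjusted p = 0.256, and 0.0356 with the replicate block). TNF against IFN gave -67.6% (log2 -1.62 ± 0.48, adjusted p = 0.0109). That call was lost without si-control + IFN replicate 3 (-1.19) and in replicates 1 and 2 alone (-1.25).

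Jam3 (JAM-C) was not called with any cytokine in si-control cells. It held 37.5, 40.2, 33.5 and 35.1 CPM without cytokine and 52.8, 54.3, 25.4 and 25.9 CPM with TNF, so the TNF libraries lay on both sides of the untreated ones. The log2 value was 0.12 ± 0.39 with TNF, from 0.48 in replicates 1 and 2 and -0.42 in replicates 3 and 4, each called. It was 0.38 ± 0.39 with IFN, -0.03 ± 0.39 with TNF + IFN and -0.26 ± 0.39 for TNF against IFN.

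Alcam, the ligand of CD6 on T cells, fell with TNF and was not called with the combination. The si-control libraries held 46.1, 49.8, 76.5 and 78.6 CPM without cytokine and 24.7, 22.8, 46.0 and 34.9 CPM with TNF. With IFN they held 60.5, 60.3, 77.5 and 66.2 CPM while the combination gave 45.7, 43.2, 58.6 and 63.1 CPM. The highest TNF library lay just under the lowest untreated library. Alcam fell by 48.8% with TNF (log2 -0.97 ± 0.24, adjusted p = 0.00283), and TNF against IFN gave -51.4% (log2 -1.04 ± 0.24, adjusted p = 0.00148). The values with IFN and with TNF + IFN were 0.08 ± 0.24 and -0.25 ± 0.24. The TNF-by-IFN interaction was 0.64 ± 0.34 in si-control and 0.93 ± 0.33 in si-dnmt, not called in either (adjusted p = 0.567 and 0.465) and called in both with the replicate block (adjusted p = 0.014 and 0.00049).

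**Figure D2:**
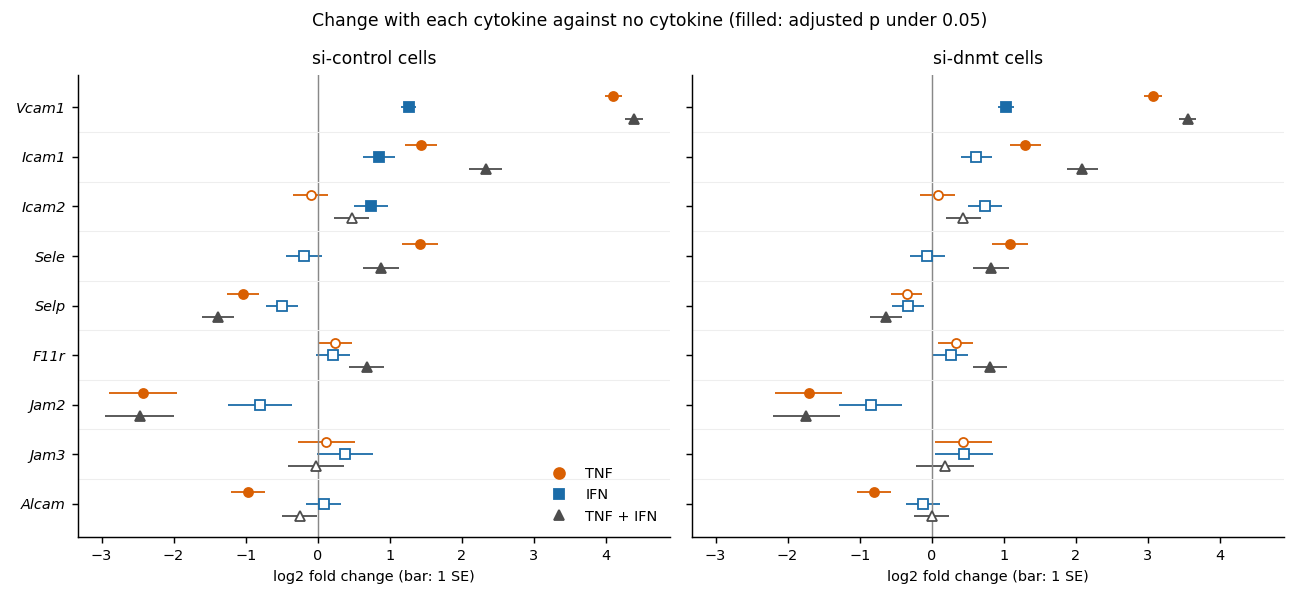
Log2 fold change (± 1 SE) of 9 genes with TNF, IFN or TNF + IFN against no cytokine, in si-control cells (left) and si-dnmt cells (right), with filled symbols where the adjusted p was under 0.05. Madcam1 is left out because it was near 0 without TNF. Vcam1 stands farthest to the right with TNF in both panels (4.10 and 3.07), and Jam2 farthest to the left (-2.43 and -1.71).

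In si-dnmt cells the pattern of TNF-led members was again present. TNF moved 6 of 10 members, where 21% of genes were called, IFN moved 1, where 8.99% were called, and TNF + IFN moved 7, where 40.1% were called. The comparison of TNF with IFN called 5 members, where 17% of genes were called. Vcam1, Icam1, Sele and Madcam1 were higher with TNF, by 4.13-fold, 1.60-fold, 2.19-fold and a count ratio of 98.1 (55.9 to 191), and Alcam was lower (-37.6%). Jam2 gave -0.86 ± 0.47 (adjusted p = 0.235). Icam2 gave -0.66 ± 0.24 (adjusted p = 0.0634) and was called with the replicate block (-0.69, adjusted p = 0.000318), by DESeq2 (adjusted p = 0.0455) and in each replicate set (-0.49 and -0.92). Of the 12 Madcam1 counts in the si-dnmt + IFN libraries, 11 were in replicate 2. The Madcam1 ratio of TNF to IFN was 74.5 in replicates 1 and 2 (41.5 to 150) and 225 in replicates 3 and 4 (39.8 to 8940), and its fitted log2 value of 6.51 became 9.25 without si-dnmt + IFN replicate 2. For TNF against IFN, Icam1 gave log2 0.68 (adjusted p = 0.0281) and Alcam log2 -0.68 (adjusted p = 0.0479). Without the low-count filter neither was called (adjusted p = 0.0777 and 0.126). Alcam also lost its call with DESeq2's size factors (adjusted p = 0.0531) and when only the libraries compared were fitted (adjusted p = 0.0526). Each of the 2 calls was lost on leaving out any 1 of 6 of the 8 libraries. Those that kept the call were si-dnmt + TNF replicates 3 and 4 in each case, and all values lay between 0.64 and 0.71 for Icam1 and between -0.82 and -0.55 for Alcam.

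Vcam1 was the member that IFN raised in si-dnmt cells, by 2.04-fold (log2 1.03 ± 0.11, adjusted p = 4.52e-08). Icam1 gave 0.62 ± 0.22 (adjusted p = 0.0732) and Icam2 gave 0.74 ± 0.24 (adjusted p = 0.056), and both were called with the replicate block (adjusted p = 0.000895 and 0.000225). With the block, 5 members were called for IFN in si-dnmt cells and 5 in si-control cells, where it called 18.8% and 25.2% of genes. The others gained with the block in si-dnmt cells were F11r (0.25, adjusted p = 0.00242) and Jam2 (-0.85, adjusted p = 0.0444). With TNF the block also called F11r (0.31, adjusted p = 0.00014), and with TNF + IFN it called Icam2 (0.42, adjusted p = 0.0136), neither of which was called without it. Sele rose with TNF by 2.11-fold and with TNF + IFN by 1.77-fold, and F11r rose with TNF + IFN by 1.76-fold.

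The Selp response in si-dnmt cells depended on the replicate set. The si-dnmt libraries held 1006, 1011, 575 and 585 CPM without cytokine, 565, 533, 695 and 696 CPM with TNF, 671, 662, 592 and 601 CPM with IFN, and 376, 341, 668 and 650 CPM with TNF + IFN. Replicates 1 and 2 were the highest libraries without cytokine and the lowest with TNF + IFN. The change with TNF was -0.35 ± 0.22 (adjusted p = 0.278), from -0.87 in replicates 1 and 2 and 0.26 in replicates 3 and 4, both called. With TNF + IFN it was -0.64 ± 0.22 (adjusted p = 0.0193), from -1.49 and 0.19, again both called. This last call was lost, at -0.49 to -0.52, without any 1 of replicates 1 and 2 of si-dnmt or of si-dnmt + TNF + IFN.

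**Figure D3:**
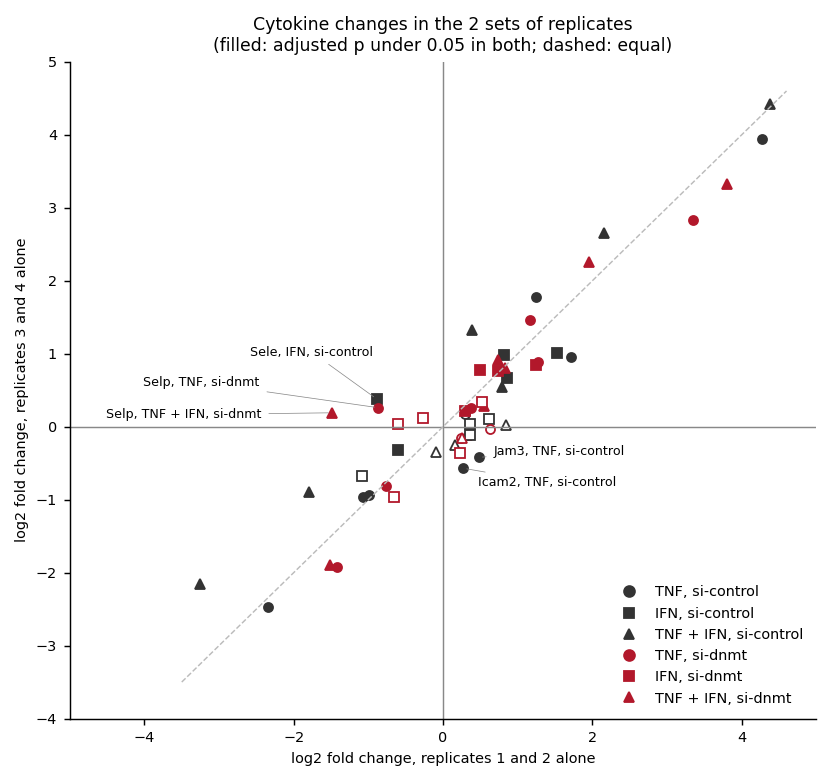
Log2 fold change with TNF, IFN or TNF + IFN against no cytokine for 9 genes (Madcam1 left out), fitted in replicates 1 and 2 alone (horizontal) and in replicates 3 and 4 alone (vertical), with dark symbols for si-control, red for si-dnmt, and filled symbols where both sets were called. The labeled points carry opposite signs in the sets, such as Sele with IFN in si-control (-0.89 and 0.38) and Selp with TNF + IFN in si-dnmt (-1.49 and 0.19).

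The comparison of si-dnmt with si-control asks how loss of Dnmt1 RNA goes with the level of these genes. Without cytokine it called 4 members, with Vcam1, Icam1 and Sele higher and Jam3 lower, where 18.4% of genes were called. With TNF it called 3 (Icam1 and Selp higher, Jam3 lower), where 19.9% were called, and 6 with the replicate block, where 33.1% of genes were called. With IFN it called 3 (Vcam1 and Sele higher, Jam3 lower), where 20.4% were called, and 5 with the block, where 34.2% were called. With TNF + IFN it called 5 (Vcam1, Sele, Selp and Alcam higher, Jam3 lower), where 17.6% were called. Jam3 was thus the member called in all 4 states in the main fit. Each of the 4 comparisons has libraries of its own. The summed pericyte and smooth muscle markers moved with the siRNA, from 7.69 to 69.4 CPM in si-control libraries to 39.3 to 230 CPM in si-dnmt libraries. Of that list Acta2 made up most (6.94 to 227 CPM), 3 of 5 genes were tested, and the defining markers Rgs5 and Cspg4 stayed at or below 0.0545 and 0.174 CPM. Summed fibroblast markers were 17.8 to 80.4 CPM in si-control and 10.7 to 34.4 CPM in si-dnmt libraries. The part of either in these results was not tested.

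Jam3 was lower in si-dnmt cells whatever the cytokine. The si-dnmt libraries held 16.4, 15.1, 7.71 and 8.72 CPM without cytokine, 25.6, 22.8, 7.70 and 8.43 CPM with TNF, 19.8, 24.9, 10.0 and 10.7 CPM with IFN and 18.0, 21.2, 7.46 and 7.61 CPM with TNF + IFN. Only the TNF groups overlapped, since si-dnmt + TNF replicate 1 was above the lowest si-control + TNF library of 25.4 CPM. The difference was -67.4% without cytokine (log2 -1.62 ± 0.40, adjusted p = 0.00544). It was -59.2% under TNF (log2 -1.29 ± 0.40, adjusted p = 0.0223), -65.6% under IFN (log2 -1.54 ± 0.40, adjusted p = 0.00702) and -62.2% under both (log2 -1.40 ± 0.41, adjusted p = 0.016). Each set of replicates called it in every state. Reads counted for Jam3 may include those of the antisense gene Gm48796, which shares 1159 exon bases with it. The TNF call was lost, at -1.06 to -1.12, without any 1 of si-control + TNF replicates 1 and 2 and si-dnmt + TNF replicates 3 and 4. It was also lost without the low-count filter (-1.29, adjusted p = 0.0673) and when only the libraries compared were fitted (-1.31, adjusted p = 0.0802). The TNF + IFN call was lost, at -1.20, without si-dnmt + TNF + IFN replicate 3 or 4.

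Vcam1 was higher in si-dnmt cells at rest, and that difference shrank once TNF was present. Without cytokine the si-dnmt libraries held 91.4, 103, 140 and 120 CPM, a level 2.42-fold that of si-control (log2 1.28 ± 0.11, adjusted p = 5.69e-09). With IFN they held 223, 235, 257 and 211 CPM, 2.06-fold that of si-control (log2 1.04 ± 0.11, adjusted p = 1.19e-07). With TNF they held 1024, 946, 955 and 895 CPM, where the difference was 0.25 ± 0.11 (adjusted p = 0.104), although no si-dnmt library fell below a si-control one. With TNF + IFN they held 1426, 1273, 1319 and 1284 CPM, 1.35-fold that of si-control (log2 0.43 ± 0.11, adjusted p = 0.00589).

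The change of the siRNA effect on Vcam1, taken as a ratio, was itself called. The siRNA-by-TNF interaction was -1.02 ± 0.15 on the log2 scale (adjusted p = 0.00535), in a test that called 0.0328% of genes. The siRNA-by-TNF + IFN interaction was -0.85 ± 0.15 (adjusted p = 0.00627), where 0.511% of genes were called. Both went the same way in replicates 1 and 2 (-0.92 and -0.58) as in the other pair, replicates 3 and 4 (-1.10 and -1.09), and all of these were called. When only the libraries compared were fitted the sizes were -1.04 and -0.85 but the adjusted p rose to 0.0706 and 0.0507. The siRNA-by-IFN interaction was -0.23 ± 0.15 (adjusted p = 1.0), and 0.0459% of genes and no member were called in that test by edgeR or DESeq2, and 0 members had an unadjusted p under 0.05.

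Icam1 means in si-dnmt cells were 1.48 to 1.74 times those in si-control cells. The si-dnmt libraries held 440, 459, 358 and 317 CPM without cytokine, 1024, 994, 902 and 954 CPM with TNF, 636, 632, 595 and 556 CPM with IFN, and 1684, 1774, 1598 and 1636 CPM with TNF + IFN. All lay above the si-control libraries of the same state except with IFN, where si-control replicate 2 (562 CPM) was above the lowest si-dnmt library. The ratio was 1.74 without cytokine (log2 0.80 ± 0.22, adjusted p = 0.00955) and 1.59 with TNF (log2 0.67 ± 0.22, adjusted p = 0.0285). The resting call was lost when only the libraries compared were fitted (0.79, adjusted p = 0.0837), and the TNF call was lost, at 0.57 to 0.67, without any 1 of si-control + TNF replicates 3 and 4 and si-dnmt + TNF replicates 1, 2 and 4. Under IFN the value was 0.57 (adjusted p = 0.0624) and under both cytokines 0.56 (adjusted p = 0.0708), both called with the replicate block (adjusted p = 0.00083 and 0.00138). They were also called, at 0.76 without si-control + IFN replicate 2 and at 0.70 without si-control + TNF + IFN replicate 1. The Icam1 interactions of siRNA with TNF and with TNF + IFN were -0.13 ± 0.30 and -0.24 ± 0.30, not called.

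The selectins were also higher in si-dnmt cells, with calls in partly different states. In the main fit no siRNA-by-cytokine interaction of either was called, so the states were not shown to differ. Sele in si-dnmt libraries was 54.0, 65.5, 63.5 and 64.4 CPM without cytokine, 152, 136, 111 and 124 CPM with TNF, 52.7, 46.3, 73.2 and 65.7 CPM with IFN, and 104, 93.5, 129 and 111 CPM with TNF + IFN. No state overlapped with si-control. The ratio was 2.01 without cytokine (log2 1.01 ± 0.25, adjusted p = 0.00454), 2.20 under IFN (log2 1.14 ± 0.25, adjusted p = 0.0016) and 1.94 under both cytokines (log2 0.96 ± 0.25, adjusted p = 0.00692). With TNF the value was 0.67 ± 0.24 (adjusted p = 0.0525), called with the replicate block (adjusted p = 0.0494) and, at 0.85 and 0.84, without si-control + TNF replicate 1 or 2.

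Selp was higher in si-dnmt cells with TNF and with TNF + IFN. The ratio was 2.00 with TNF (log2 1.00 ± 0.22, adjusted p = 0.00156) and 2.07 with TNF + IFN (log2 1.05 ± 0.22, adjusted p = 0.00106), with no overlap in either. Without cytokine it was 0.31 ± 0.22 on the log2 scale (adjusted p = 0.35), and with IFN 0.48 ± 0.22 (adjusted p = 0.122). The IFN groups did not overlap either, and that value was called when only the libraries compared were fitted (adjusted p = 0.0216). Each replicate set alone called Selp higher in both of these states (0.38 and 0.22 without cytokine, 0.38 and 0.58 with IFN). The change between states was not called: the siRNA-by-TNF interaction was 0.68 ± 0.31 (adjusted p = 0.689) and the siRNA-by-TNF + IFN interaction 0.74 ± 0.31 (adjusted p = 0.423). Both were called in replicates 3 and 4 (1.22 and 1.08) and neither in replicates 1 and 2 (0.20 and 0.30).

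**Figure D4:**
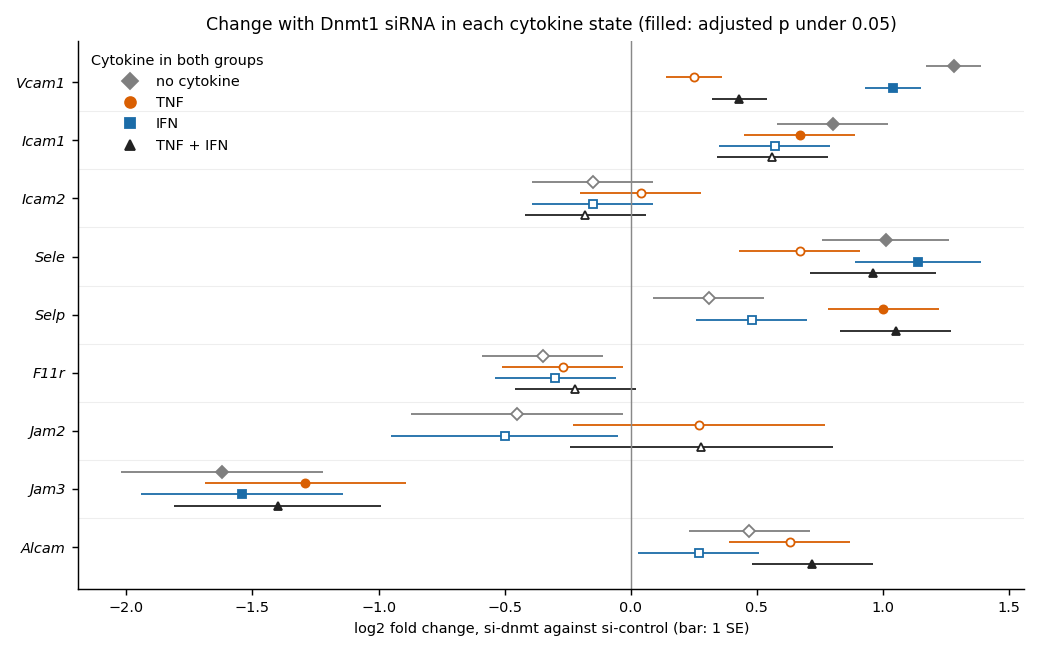
Log2 fold change of si-dnmt against si-control (± 1 SE) for 9 genes in each cytokine state, with filled symbols where the adjusted p was under 0.05. Madcam1 is left out. Jam3 lies between -1.62 and -1.29 in all states, while Vcam1 lies at 1.28 and 1.04 without TNF and at 0.25 and 0.43 with it.

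Alcam gave positive values in each state, 0.47 ± 0.24 without cytokine, 0.63 ± 0.24 with TNF, 0.27 ± 0.24 with IFN and 0.72 ± 0.24 with TNF + IFN. The last was called (adjusted p = 0.0342), and that call was lost, at 0.61 to 0.69, without any 1 of si-control + TNF + IFN replicates 1 and 2 and si-dnmt + TNF + IFN replicates 3 and 4. The value with TNF was called, at 0.74 to 0.85, without si-control + TNF replicate 3 or si-dnmt + TNF replicate 1 or 2. With the replicate block the values without cytokine and with TNF were called too (adjusted p = 0.00134 and 4.13e-05). F11r gave negative values in each state, -0.35 ± 0.24 without cytokine, -0.27 ± 0.24 with TNF, -0.30 ± 0.24 with IFN and -0.22 ± 0.24 with TNF + IFN. None was called, and all 4 were called with the block (adjusted p = 2e-05 without cytokine, 0.000467 with TNF, 0.000331 with IFN and 0.00549 with TNF + IFN).

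Icam2, Jam2 and Madcam1 were not called in any of the 4 siRNA comparisons, and their groups overlapped in each. In replicates 3 and 4 alone, Icam2 was called lower without cytokine (-0.44) and with IFN (-0.35), and Jam2 likewise (-0.63 and -0.92). Replicates 1 and 2 gave 0.12 and 0.00 for Icam2 and -0.13 and 0.29 for Jam2, not called. With TNF, Madcam1 was 20.8, 18.4, 3.78 and 4.22 CPM in si-dnmt libraries, next to 19.6, 16.6, 5.06 and 4.64 CPM in si-control ones. Its rise with TNF was a count ratio of 125 in si-dnmt cells (67.5 to 261) and 122 in si-control cells. The gap between replicate sets within a group was larger than that between siRNAs. In si-dnmt cells TNF alone gave 2.46 times the Madcam1 counts of TNF + IFN (2.17 to 2.78, counting interval). This ratio was 2.29 in replicates 1 and 2 and 2.41 in replicates 3 and 4. The libraries overlapped, at 3.78 to 20.8 CPM with TNF and 1.56 to 10.3 CPM with TNF + IFN. It was not tested over libraries.

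Levels can be set against each other only per transcript length, so CPM was divided by the length of the longest annotated transcript in kb. On this scale Selp was the most abundant member in untreated si-control cells, at 186 ± 50 CPM per kb (SD, n = 4) and 34.7% ± 2.88 of the summed level of the 10 genes. F11r (109 ± 18.9), Icam2 (92.6 ± 4.35) and Icam1 (89.2 ± 34.7) followed and differed from each other by less than their spread, and Vcam1 made up 2.25% ± 0.568. With TNF + IFN the order was Icam1 (447 ± 96.1), Vcam1 (241 ± 23.4), F11r (176 ± 45.2), Icam2 (128 ± 38.4) and Selp (71.4 ± 8.01), and Icam1 alone made up 39.8% ± 3.24. In si-dnmt cells with TNF + IFN, Icam1 reached 660 ± 29.9 CPM per kb and 45.2% ± 0.828 of the sum, and Selp 10.2% ± 3.83. The summed mean level of the members was 529 CPM per kb in untreated si-control cells and 1460 CPM per kb in si-dnmt cells with TNF + IFN. Dividing by the mean transcript length moved Vcam1 (364 CPM per kb) to the place after F11r (366 CPM per kb) in si-control cells with TNF + IFN, and left Selp and Icam1 first in their groups. Icam1 was 479 CPM per kb there, little above its 447, while F11r went from 176 to 366. The shares of the sum therefore depend on the length used, and they are given for the longest transcript alone.

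**Figure D5:**
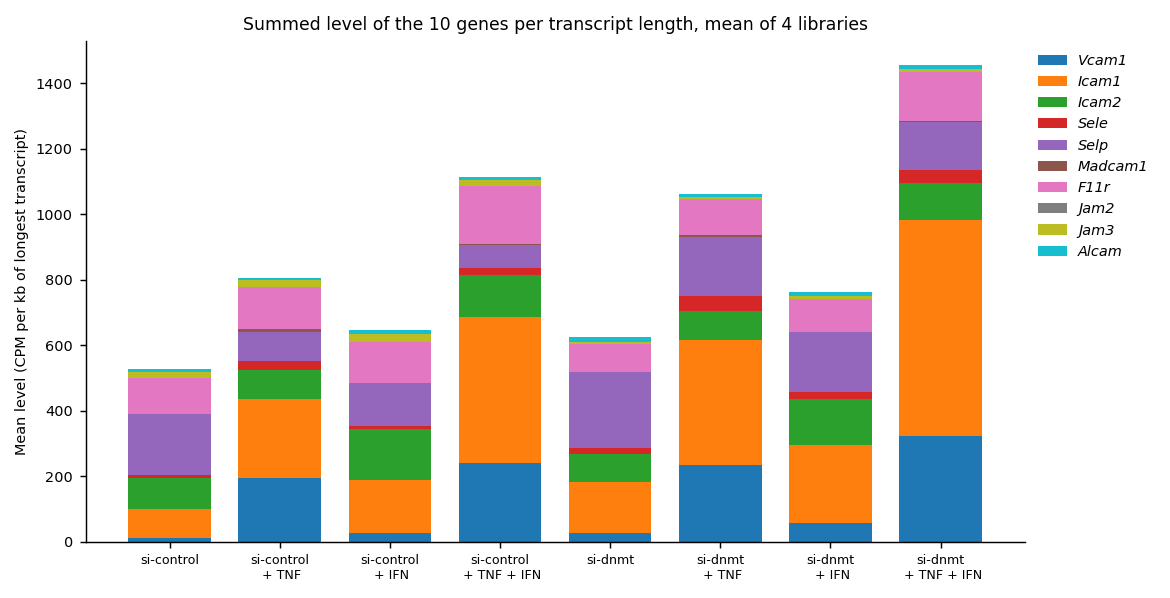
Stacked mean levels (n = 4) of the 10 genes in CPM per kb of the longest transcript, for the 8 groups. The purple Selp share is the largest in untreated cells (34.7% in si-control) and the orange Icam1 share in cells given TNF + IFN (39.8% in si-control and 45.2% in si-dnmt).

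The genes around these adhesion molecules were examined as 5 lists. Of the transmigration and junction genes, 16 of 17 were tested, and TNF + IFN in si-control cells raised 4 and lowered 10, with a median log2 change of -0.84, where 45.1% of all genes were called and their median was near 0. Bst1 (CD157) rose by 2.63 and Cd47, a ligand of leukocyte SIRPα, by 1.27, while Cldn5, a tight-junction protein, and Ceacam1 fell by 3.17 and 2.92 on the log2 scale. With TNF alone 2 rose and 6 fell, where 30.7% of all genes were called, and with IFN alone 4 rose and 1 fell, where 14.4% were called. In si-dnmt against si-control, 1 of the 16 was called without cytokine and with TNF + IFN, where 18.4% and 17.6% of all genes were called. This was Pvr, which fell by 0.98 and 0.99.

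Of the genes for selectin ligands and tethering, 10 of 14 were tested. TNF + IFN raised 2 (B3gnt3 by 1.28 and Podxl by 1.21) and lowered 6, among them Cd24a, which fell by 3.47, and Chst2, which fell by 2.55 and was uneven, at 8.42 ± 8.75 CPM (SD, n = 4) without cytokine. These 8 of 10 stand beside 45.1% of all genes called. TNF alone raised 1 and lowered 4, where 30.7% of genes were called, and IFN alone raised 3 and lowered 1, where 14.4% were called. Cd24a, a P-selectin ligand, was higher in si-dnmt cells without cytokine by 1.38 and with TNF + IFN by 1.53, and Emcn, an endothelial sialomucin, was lower with TNF + IFN by 0.71. Selplg, the main ligand of P-selectin on leukocytes, did not pass the filter, with at most 9 counts in a library.

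Of the membrane anchors and sheddases, all 12 were tested, and TNF called 5 and TNF + IFN called 6, with 3 higher and 3 lower for the latter. Among all genes, 30.7% were called with TNF and 45.1% with TNF + IFN. Adam17, which sheds adhesion molecules from the surface, rose by 0.91 with TNF and by 0.58 with TNF + IFN. Timp3, an inhibitor of such sheddases, fell by 1.27 with TNF and rose by 1.21 with IFN. In si-dnmt against si-control, 1 was called without cytokine, namely Rdx, which fell by 0.65, where 18.4% of all genes were called. With TNF the siRNA comparison called 3, all higher, where 19.9% of genes were called, and with IFN 1, higher, where 20.4% were called.

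Among other ICAM and JAM relatives, 7 of 8 were tested. TNF + IFN in si-control cells raised 3 and lowered 1, where 45.1% of all genes were called. Igsf11 rose from 0.0454 CPM without cytokine to 0.505 CPM, near the detection limit, while Vsig2 fell from 3.96 to 1.70 CPM (adjusted p = 0.000343). Of the leukocyte counter-receptors, 6 of 10 were tested. Itga4, the α4 chain that pairs to bind Vcam1 and Madcam1, was present in these ECs at 78.3 ± 8.67 CPM without cytokine (SD, n = 4). It fell by 0.46 with IFN and by 0.87 with TNF + IFN in si-control cells, and was higher by 1.04 in si-dnmt cells without cytokine. Itgb7 rose with IFN from 0.534 to 3.57 CPM (adjusted p = 0.0235), and Itgal with TNF + IFN from 0.0332 to 0.532 CPM (adjusted p = 0.00146). Itgam, Itgax and Itgad did not pass the filter.

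Genes with the most similar pattern were sought over the 8 group means of log2 CPM, among 4424 genes that spanned at least 1 log2 unit. Those closest to Vcam1 were Pclaf (Pearson's r = 0.994), Ccl2 (0.992) and Gm10791 (0.991), and those closest to Icam1 were Fas (0.997), Stx11 (0.996) and Slc15a3 (0.994). Cmtm4 (0.994), Nolc1 (0.991) and Abcb1b (0.99) were closest to Sele, and Spata2l (0.993), Tigd5 (0.988) and Plekha7 (0.982) to Selp. These are descriptions over 8 means that share libraries and depth.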

How the data were processed

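Per the labels, adapters were trimmed with cutadapt 4.9, reads were checked with FastQC 0.12.1 and MultiQC 1.27.1, and genes were counted with featureCounts. The authors deposited the raw counts per gene, as 1 table for each of the 32 libraries and 1 merged table, which differed in 0 cells once summed by symbol. For the aligner, genome build, annotation and strand setting, nothing was given in the sources used here. Total counts were 17362546 to 33500030 (median 20859668), which limits the precision of Madcam1 and Jam2.

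Genes were filtered with filterByExpr (minimum count 10), and the 15254 that remained were scaled by TMM and fitted as 8 group means in edgeR 4.0.16 (R 4.3.3). Contrasts were tested with the quasi-likelihood F test, which is two-sided. P-values were adjusted by the Benjamini-Hochberg method across the genes fitted, and genes under an adjusted p of 0.05 count as called. Errors of log2 values are SE. An interaction is a difference of log2 fold changes. Ratios of Madcam1 counts carry 95% exact intervals for counting error only, and a count of 0 was taken to allow 3. The fit was also run on simulated counts with independent libraries and no replicate sets, so that run cannot speak to the split between the sets. Groups were taken from the labels, including one spelled si-dnmtl.

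Samples with the same replicate number deviated together from their group means in every comparison (r = 0.299 to 0.617). In each comparison, 1 to 3 of the 4 libraries correlated best with the library of their own number. These values therefore do not separate pairing by number from the split between the replicate sets. A fit with replicate number as a block was also run, and its value is printed where it changed the call of a member. The labels do not say what a number shares. Other alternatives were DESeq2 1.42.0, its size factors, no low-count filter, fits of only the libraries compared, each replicate set alone and each library left out. Adjusted p-values from a set alone do not measure the spread between the sets.

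The members and gene lists were chosen with earlier results of these data known. All members are named, as are Dnmt1, cytokine targets, up to 2 called genes per list and direction in the comparisons given, and the 3 genes closest in pattern. Among list genes, Selplg, Adam17 with TNF + IFN and the counter-receptors under the filter are named for their role. Promoter windows came from RefSeq and transcript lengths from GENCODE M21. Results for some markers and motifs are not reported here.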

Additional observations from a re-analysis of the deposited data

Results flagged for a closer look

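In 3 of 80 gene-by-group sets of 4 libraries, 1 library stood far from the other 3, and chance alone flags about 1 in 20 such sets. Sele was 54.0 CPM in si-dnmt replicate 1 and up to 65.5 CPM in the other si-dnmt libraries. Madcam1 was 0.462 CPM in si-dnmt + IFN replicate 2, with libraries of that group as low as 0 CPM. Jam2 was 1.85 CPM in si-dnmt + IFN replicate 4, and the lowest library of that group held 1.20 CPM.

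In the main fit, Vcam1 was the member whose response to one treatment differed by test with another. Its TNF-by-IFN interaction in si-control cells was -0.96, its siRNA-by-TNF interaction was -1.02 and its siRNA-by-TNF + IFN interaction was -0.85, all as differences of log2 fold changes. Neither siRNA interaction was called when only the libraries compared were fitted. With the replicate block, the TNF-by-IFN interaction of Alcam was called as well, in si-control (0.63) and in si-dnmt (0.91).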

How the results depend on the processing

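Counts of members called moved by more than 1.5 times mainly in the interactions, the IFN contrasts and the siRNA contrasts. With the replicate block they were 5 for IFN against none under each siRNA (3 in si-control and 1 in si-dnmt without it), 2 for each TNF-by-IFN interaction, 6 for the siRNA contrast with TNF and 5 for that with IFN. The block also called more of all genes. For IFN these shares were 25.2% in si-control and 18.8% in si-dnmt, and for the TNF-by-IFN interactions 3.9% and 1.74%. For the siRNA contrasts with TNF and with IFN they were 33.1% and 34.2%. The block changed no call of a member beyond those printed with the results. Replicates 1 and 2 alone gave 8 for IFN in si-control and 6 in si-dnmt, 3 for each TNF-by-IFN interaction, 10 for TNF in si-dnmt, and 7, 5 and 7 for the siRNA contrasts without cytokine, with TNF and with IFN. Replicates 3 and 4 alone gave 5 for IFN in si-control and 6 in si-dnmt, 3 and 1 for the TNF-by-IFN interaction in si-control and si-dnmt, 9 for TNF against IFN in si-dnmt, 9, 7 and 8 for the siRNA contrasts in the same order, and 2 and 4 for the siRNA interactions with TNF and with TNF + IFN. Without the low-count filter, 3 were called for TNF against IFN in si-dnmt and 1 for the siRNA contrast with TNF. Fitting only the libraries compared gave 3 for IFN in si-dnmt and 0 for the siRNA interactions with TNF and with TNF + IFN. DESeq2 gave 2 for IFN in si-dnmt and 5 for the siRNA contrast with TNF. For settings other than the block, including the libraries left out below, the share of all genes called is not given. Those counts are therefore not results about the members. The causes of these shifts were not tested.

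With 1 library left out, the count was 1 to 3 for IFN in si-control (1 without si-control + IFN replicate 2), 1 to 2 for IFN in si-dnmt (2 without si-dnmt + IFN replicate 3), 3 to 5 for TNF against IFN in si-dnmt (3 without si-dnmt + IFN replicate 1, 2 or 4), 0 to 1 for the TNF-by-IFN interaction in si-dnmt (1 without si-dnmt replicate 3), 1 to 3 for the siRNA contrast with TNF (1 without si-dnmt + TNF replicate 4) and 3 to 5 for that with TNF + IFN (3 without si-dnmt + TNF + IFN replicate 3 or 4).

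Signs turned for values near 0 or between the replicate sets. In si-control, Jam3 with TNF was -0.01 with the block and -0.42 in replicates 3 and 4, and Jam3 with TNF + IFN was 0.16 in replicates 1 and 2. Icam2 with TNF was 0.27 in replicates 1 and 2, Sele with IFN was 0.38 in replicates 3 and 4, Alcam with IFN was -0.11 there, F11r for TNF against IFN was -0.05 in replicates 1 and 2, and the Icam1 TNF-by-IFN interaction was -0.11 in replicates 3 and 4. In si-dnmt, Selp with TNF and with TNF + IFN was 0.26 and 0.19 in replicates 3 and 4. With 1 library left out, these values ranged from -0.07 to 0.28 and -0.18 to 0.06 for Jam3 with TNF and with TNF + IFN, from -0.24 to 0.03 for Icam2 with TNF, from -0.05 to 0.18 for Alcam with IFN, from -0.09 to 0.22 for F11r, from -0.15 to 0.26 for the Icam1 TNF-by-IFN interaction and from -0.32 to 0.02 for the Icam1 siRNA-by-TNF interaction. With DESeq2's size factors in edgeR, no count moved by more than 1.5 times, although the Alcam call for TNF against IFN in si-dnmt was lost. Depth limits Madcam1 without TNF and Jam2 with TNF, where libraries hold few counts.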
